A study of Mus musculus with 4 samples.

Results

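Caspases are cysteine proteases that are made as inactive proenzymes and cut their substrates after aspartate. The 7 genes described here are Casp1, Casp2, Casp4, Casp6, Casp8, Casp9 and Casp12, found by symbol among the 32285 genes of the single-nucleus count tables, where 10 genes carry a caspase symbol. All 7 symbols matched 1 gene ID each. The members were chosen by gene family, with their measured difference between genotypes in excitatory neurons already known, so the members' values from excitatory neurons and their subclasses are given as a description and support nothing; tests there are given for other genes.

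Initiator caspases start a cascade on a protein platform. Caspase-2 is activated on the PIDDosome, a complex of PIDD1 and CRADD, in response to DNA damage or extra centrosomes; caspase-8 is activated at death receptors and also restrains necroptosis; and caspase-9 is activated on the apoptosome, which APAF1 forms once cytochrome c has left mitochondria. Caspase-6 is an executioner that cuts lamin A and is known in neurons for its part in axon degeneration. Inflammatory caspases act in innate immunity. Caspase-1 is the inflammasome protease that matures interleukin-1β and interleukin-18 and cuts gasdermin D, mouse caspase-4 (also called caspase-11) senses cytosolic lipopolysaccharide, and caspase-12 is a mouse protein associated with the endoplasmic reticulum. In the brain, microglia, the resident macrophages, are the best known site of the inflammatory members.

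The libraries were single-nucleus RNA of the cortex from 5-month-old C57BL/6 mice, 2 labelled Setdb1-CK-cKO (knockout) and 2 labelled wildtype, with 1 animal per library. SETDB1 is a histone H3 lysine 9 methyltransferase that silences genes and retroelements. The labels neither expand CK nor name a Cre driver, and the deleted exon is not given in the sources used here. The 52038 nuclei kept after filtering held 35792576 to 42836965 unique molecular identifiers (UMIs) per library, and 49150 of them lay in clusters named from marker genes. Setdb1, counted from 3′ tags that do not check the deletion, had a level of 69.6 and 65.8 CPM (UMIs of a gene scaled to all UMIs of the library or class) in the knockout libraries and 68.9 and 64.5 CPM in the wildtype libraries. Xist, a noncoding RNA made from the silenced X in females, had 0.95 CPM in knockout replicate 1, labelled female, and 1379 CPM in knockout replicate 2, labelled male, against 1.75 and 1019 CPM in the wildtype male and female. By these values both knockout libraries carry the pattern of the other sex from their label, so libraries with the same replicate number share a sex-linked RNA pattern, and the results below give each library separately. Each pair of libraries shared 48 to 64 cell barcodes, at most 0.48% of the smaller one.

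The 7 genes lie on 5 chromosomes, all on the plus strand of mm10. Casp1 (chr9:5298517-5307265), Casp4 (chr9:5308828-5336783) and Casp12 (chr9:5345430-5373032) stand side by side, 1562 bp and 8646 bp apart. Casp2 lies at chr6:42264985-42282508 and holds a small nucleolar RNA gene on its own strand, Gm25108. Casp6 lies at chr3:129901425-129914103, Casp8 at chr1:58795374-58847503 with the overlapping transcript Gm37760 on the same strand, and Casp9 at chr4:141793612-141815976 with Cela2a and Ctrc on the other strand. UMIs of overlapping genes cannot always be assigned, so the counts of Casp2, Casp8 and Casp9 are uncertain to that extent.

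The promoters of 3 members are shown because Casp2 and Casp1 were lower in both knockout libraries than in both wildtype libraries of excitatory neurons and Casp9 was not. They are the 250 bases before the RefSeq start on GRCm38.p6, plus strand, at chr6:42264735-42264984 for Casp2, chr9:5298267-5298516 for Casp1 and chr4:141793362-141793611 for Casp9. Capitals mark the motifs searched on both strands, each also searched as its reverse complement. They are the CCAAT box, spelled CCAAT, then the GC box, spelled GGGCGG, then the E-box, spelled CACGTG, and lastly the TATA box, spelled TATAAA.
Casp2: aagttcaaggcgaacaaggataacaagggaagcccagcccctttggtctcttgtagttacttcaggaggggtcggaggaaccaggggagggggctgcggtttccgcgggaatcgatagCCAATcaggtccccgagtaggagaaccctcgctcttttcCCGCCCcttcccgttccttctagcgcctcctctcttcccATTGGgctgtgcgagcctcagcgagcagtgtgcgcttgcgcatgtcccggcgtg
Casp1: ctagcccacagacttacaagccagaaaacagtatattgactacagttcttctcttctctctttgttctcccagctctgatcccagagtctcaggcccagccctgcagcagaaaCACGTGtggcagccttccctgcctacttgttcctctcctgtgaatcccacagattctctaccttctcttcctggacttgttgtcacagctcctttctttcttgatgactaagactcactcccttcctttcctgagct
Casp9: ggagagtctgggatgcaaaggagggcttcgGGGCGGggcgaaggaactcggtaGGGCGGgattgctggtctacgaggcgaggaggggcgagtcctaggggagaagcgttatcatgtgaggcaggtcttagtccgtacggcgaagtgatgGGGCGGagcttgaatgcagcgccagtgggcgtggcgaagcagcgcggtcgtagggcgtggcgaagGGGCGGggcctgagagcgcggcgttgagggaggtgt

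The Casp2 window held 17 CpG dinucleotides, 2 CCAAT motifs and 1 GC box. In the Casp9 window there were 25 CpG dinucleotides and 4 GC boxes. The Casp1 window had 1 CpG and 1 E-box, against a median of 6 CpG over all 32536 promoter windows of that table. Of these windows 33.8% held CCAAT, 33.0% the GC box, 6.0% the E-box and 12.3% the TATA box, which none of the 3 windows held. A match describes the letters in the window and is not a binding site.

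Among the initiators, Casp2 gave 1065 UMIs in named classes, 73.6% of them in excitatory neurons. In excitatory neurons it had 108 and 105 UMIs in knockout libraries and 282 and 289 UMIs in wildtype libraries. As a level this was 4.26 and 4.16 CPM in knockout libraries against 9.42 and 10.1 CPM in wildtype libraries. The groups did not overlap, and the knockout mean was 0.432 times the wildtype mean (log2 fold change -1.24 ± 0.14 SE, n = 2 each). With no overlap, the same order follows within the male-pattern pair and the female-pattern pair of libraries, so this adds no further evidence.

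Casp2 is described next by excitatory subclass, where the subclasses come from the same libraries and are not independent repeats. It showed a lower knockout mean in 12 of 12 excitatory subclasses, and in 10 of 12 both knockout libraries lay below both wildtype libraries. The share of all genes with such an order is not given, for Casp2 or for the members below. Counts of this kind are therefore descriptions only. The lowest ratio with enough counts was in L5 ET neurons, the extratelencephalic projection neurons of layer 5, with 5 and 4 UMIs in knockout libraries and 22 and 22 UMIs in wildtype libraries. L6 CT neurons, which project to the thalamus, had 4.18 and 7.13 CPM in knockout libraries and 11.4 and 13.3 CPM in wildtype libraries. In L2/3 IT neurons, which project within the telencephalon, the levels were 4.33 and 3.48 CPM in knockout libraries against 6.65 and 8.79 CPM in wildtype libraries. The groups overlapped in L6b neurons, at 9.13 and 7.50 CPM in knockout libraries and 12.2 and 7.81 CPM in wildtype libraries, and in the claustrum or L6 Car3 group.

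**Figure D1:**
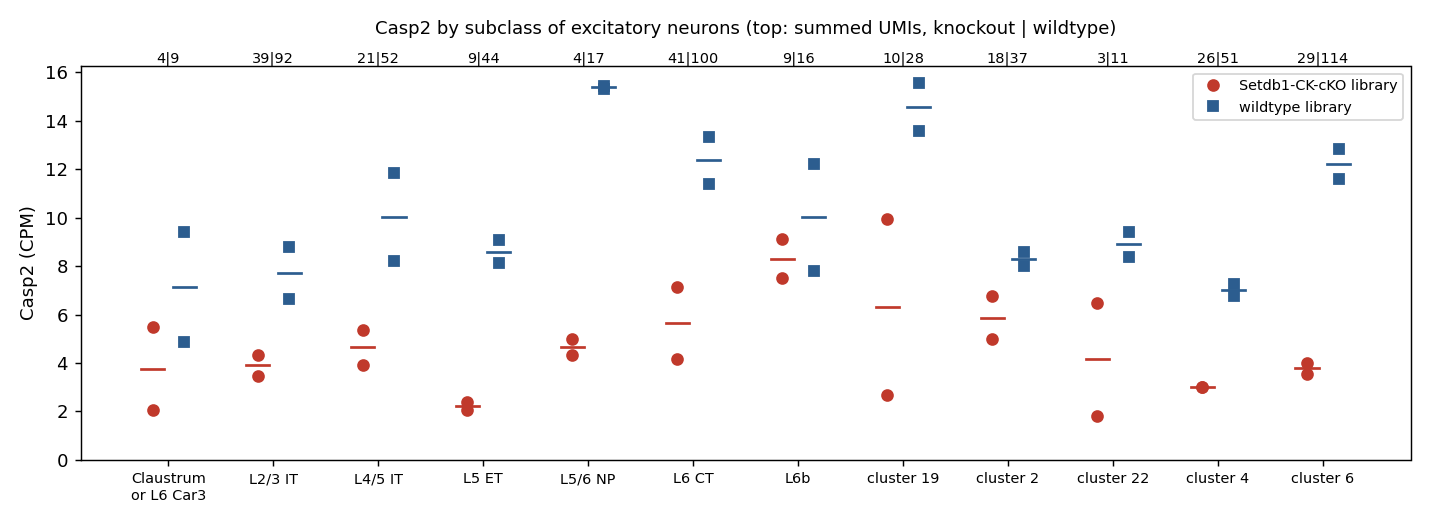
Casp2 level (CPM, vertical axis) in each excitatory subclass, with knockout libraries as red circles and wildtype libraries as blue squares, bars at the means and summed UMIs on top. The knockout mean is the lower one in all 12 subclasses, and the groups overlap in L6b and in the claustrum or L6 Car3 group.

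Outside excitatory neurons Casp2 was tested with edgeR's quasi-likelihood test, with p-values adjusted over all genes of a class. Inhibitory neurons had 16 and 16 UMIs in knockout libraries and 30 and 44 UMIs in wildtype libraries, a level of 4.49 and 4.09 CPM in knockout against 7.29 and 10.4 CPM in wildtype. Both knockout libraries lay below both wildtype libraries, but the difference missed the threshold (log2 fold change -1.06 ± 0.32 SE, edgeR adjusted p = 0.146). With the replicate block it passed (edgeR adjusted p = 0.0206), while the called genes of the class went from 162 to 1096. It missed the threshold with RLE size factors, no filter and at least 1000 UMIs (edgeR adjusted p = 0.149, 0.142 and 0.141). With DESeq2 it missed too (DESeq2 adjusted p = 0.9355). Inhibitory cluster 15, led by Pbx3, had 10 and 2 UMIs in knockout libraries and 11 and 10 UMIs in wildtype libraries (log2 fold change -1.64 ± 0.65 SE, edgeR adjusted p = 0.978). Its nuclei were uneven, at 937 and 442 in knockout libraries and 527 and 284 in wildtype libraries. Among the marker lists for inhibitory subclasses, that of striatal projection neurons scored highest in this cluster. Without knockout replicate 1 the log2 fold change there was -2.73, and without knockout replicate 2 it was -1.15. Oligodendrocytes had 8 and 8 UMIs in knockout libraries and 28 and 19 UMIs in wildtype libraries (log2 fold change -0.98 ± 0.41 SE, edgeR adjusted p = 0.272).

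Classes with fewer Casp2 UMIs fell under the filter on low counts and have no test. Astrocytes had 3 and 2 UMIs in knockout libraries and 10 and 16 UMIs in wildtype libraries, and oligodendrocyte precursors 2 and 1 UMIs in knockout libraries and 4 and 10 UMIs in wildtype libraries. The astrocytes are made of cluster 17, with 471 and 485 nuclei in knockout libraries and 1029 and 988 in wildtype libraries, and cluster 18, with 197 and 362 nuclei in knockout libraries and 20 and 36 in wildtype libraries, so all astrocyte values compare unlike mixtures of clusters. Microglia had 7 and 2 UMIs in knockout libraries and 6 and 2 UMIs in wildtype libraries, which overlap. Of the 7 classes with at least 10 Casp2 UMIs, 6 had both knockout libraries below both wildtype libraries, a count without the share of all genes beside it. The cut sums both genotypes, and astrocytes and oligodendrocyte precursors reached it only through the wildtype libraries. The 2888 nuclei of unnamed clusters had 2.63 and 4.39 CPM in knockout libraries and 11.8 and 8.59 CPM in wildtype libraries.

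Summed over the 9 non-neuronal classes, a comparison added after seeing the data, Casp2 had 21 and 15 UMIs in knockout libraries and 55 and 51 UMIs in wildtype libraries. Both knockout libraries lay below both wildtype libraries, and the difference missed the threshold (log2 fold change -1.22 ± 0.28 SE, edgeR adjusted p = 0.0979). It passed with the replicate block (edgeR adjusted p = 0.00857) and without knockout replicate 1 (edgeR adjusted p = 0.00524, log2 fold change -1.50), and missed it without knockout replicate 2 (log2 fold change -0.97, edgeR adjusted p = 0.169). Transcripts of excitatory neurons were counted in these nuclei too: the 9 excitatory marker genes summed to 1792 and 2139 CPM in knockout oligodendrocytes and 1632 and 2004 CPM in wildtype oligodendrocytes, against 2102 and 2161 CPM in knockout and 2105 and 2215 CPM in wildtype excitatory neurons. In microglia the same markers summed to 2082 and 2344 CPM in knockout and 1923 and 2181 CPM in wildtype. The part of RNA from other nuclei in the Casp2 counts of these classes was not tested. The summed nuclei also mix the classes in unlike shares. Microglia were 526 of 3119 and 654 of 3614 summed nuclei in knockout libraries, and 552 of 4185 and 580 of 4317 in wildtype libraries. The part of this mixture in the summed values of any gene was not tested.

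**Figure D2:**
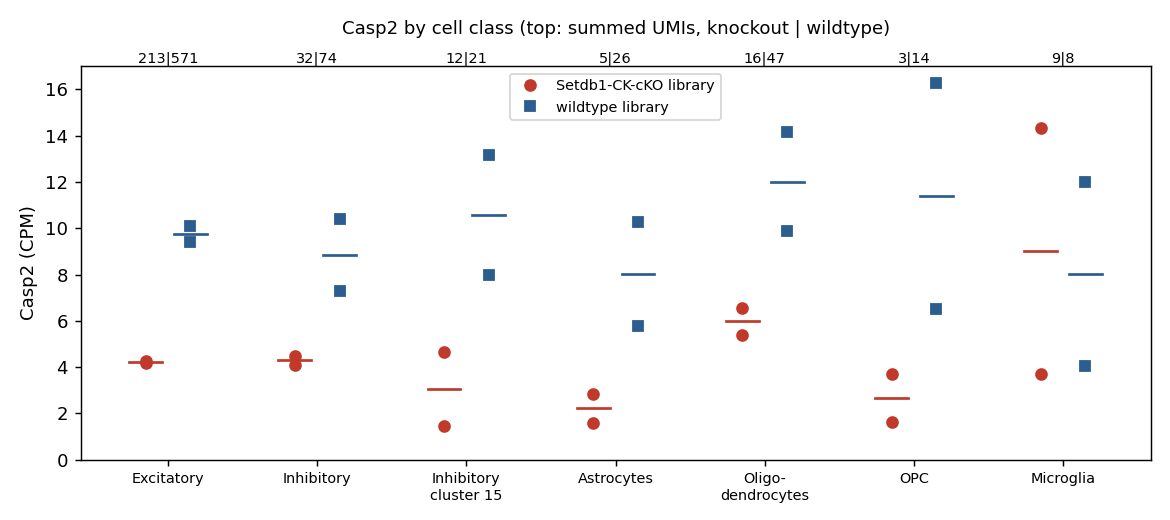
Casp2 level (CPM, vertical axis) in 7 cell classes, with knockout libraries as red circles and wildtype libraries as blue squares, bars at the means and summed UMIs on top. Both knockout libraries lie below both wildtype libraries in every class plotted except microglia; OPC stands for oligodendrocyte precursors.

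The gene after Casp2 on the same strand is Clcn1, a voltage-gated chloride channel gene that starts 4176 bp past the end of Casp2. Its level too was lower in both knockout libraries of excitatory neurons, inhibitory neurons, inhibitory cluster 15 and astrocytes. In excitatory neurons Clcn1 had 117 and 102 UMIs in knockout libraries and 302 and 314 UMIs in wildtype libraries, and it fell (log2 fold change -1.31 ± 0.15 SE, edgeR adjusted p = 0.00145). Inhibitory neurons had 26 and 22 Clcn1 UMIs in knockout libraries and 45 and 56 UMIs in wildtype libraries (edgeR adjusted p = 0.124). Inhibitory cluster 15 had 11 and 8 Clcn1 UMIs in knockout libraries and 19 and 9 UMIs in wildtype libraries (log2 fold change -1.30 ± 0.44 SE, edgeR adjusted p = 0.978). Astrocytes had 2 and 2 Clcn1 UMIs in knockout libraries and 11 and 7 UMIs in wildtype libraries, too few for a test. Oligodendrocytes had 7 and 1 Clcn1 UMIs in knockout libraries and 13 and 8 UMIs in wildtype libraries, at levels that overlap. In the summed non-neuronal classes Clcn1 missed the threshold (log2 fold change -1.04 ± 0.42 SE, edgeR adjusted p = 0.300). Clcn1 overlaps the end of Fam131b on the other strand, whose difference in excitatory neurons was 0.00 ± 0.15 (log2 fold change ± SE). Tmem139, which ends 429 bp before Casp2, had 0 UMIs in every library.

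Further out, Gstk1, a glutathione transferase gene that starts 19.0 kb before Casp2, missed the threshold in excitatory neurons (log2 fold change -0.44 ± 0.30 SE, edgeR adjusted p = 0.438). In the summed non-neuronal classes Gstk1 fell, with 15 and 11 UMIs in knockout libraries and 50 and 50 UMIs in wildtype libraries (log2 fold change -1.60 ± 0.30 SE, edgeR adjusted p = 0.0393). Tested by class, Gstk1 missed the threshold in astrocytes (log2 fold change -1.71 ± 0.52 SE, edgeR adjusted p = 0.337) and in oligodendrocytes (-1.56 ± 0.54, edgeR adjusted p = 0.179). The calcium channel gene Trpv6 and the ephrin receptor gene Ephb6, over 600 kb before Casp2, missed it in excitatory neurons at -0.53 ± 0.13 and -0.37 ± 0.11 (log2 fold change ± SE; edgeR adjusted p = 0.0543 and 0.0868). On the other side Zyx, which encodes the adhesion protein zyxin, stood at -0.13 ± 0.13 (edgeR adjusted p = 0.629).

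**Figure D3:**
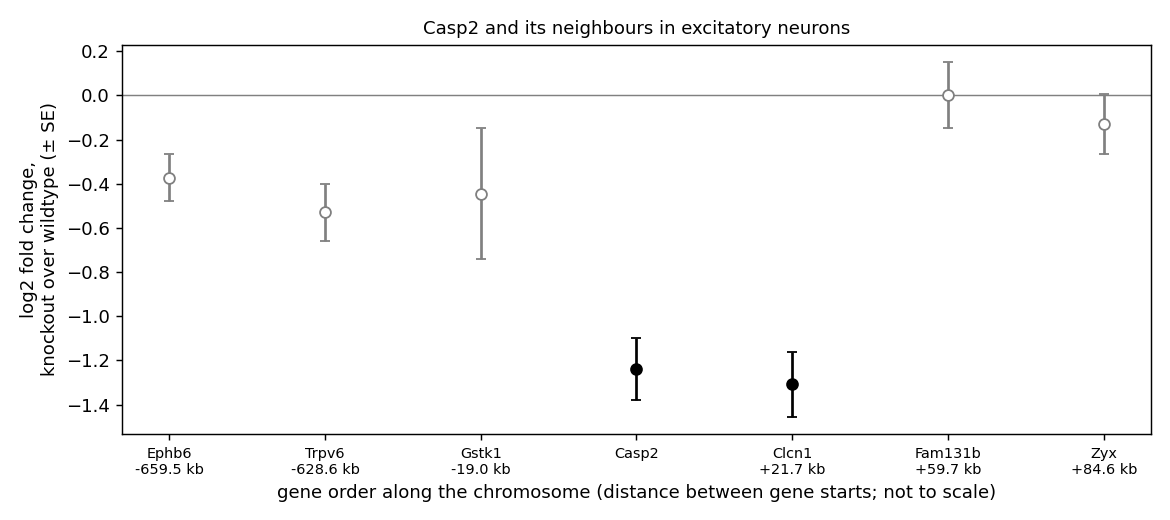
Log2 fold change (knockout over wildtype, ± SE) of Casp2 and of the 3 tested genes on either side in excitatory neurons, in chromosome order and not to scale, with distances between gene starts in kb. Casp2 and Clcn1 (filled) stand below -1.2, and the other 5 neighbours, which missed the threshold (open), lie between -0.53 and 0.00.

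Casp8 had its highest class mean in microglia, and 53.9% of its 304 UMIs in named classes came from them. Small classes followed, with means of 36.0 CPM in endothelial cells on 8 UMIs and 30.0 CPM in border macrophages on 6 UMIs. Mural cells had a mean of 17.8 CPM on 4 UMIs. Microglia had 34 and 41 UMIs in knockout libraries and 48 and 41 UMIs in wildtype libraries, a level of 69.6 and 75.6 CPM in knockout and 95.9 and 82.6 CPM in wildtype. These 4 values stood above every library of every other class, of which the highest was 61.7 CPM in border macrophages on 2 UMIs. The knockout microglia lay below the wildtype microglia without overlap, but the difference missed the threshold (log2 fold change -0.29 ± 0.23 SE, edgeR adjusted p = 0.711). The log2 fold change was -0.81 in nuclei with at least 1000 UMIs and -0.18 without wildtype replicate 1, and missed it in both.

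In excitatory neurons Casp8 stood at 0.474 and 0.713 CPM in knockout libraries and 0.535 and 0.769 CPM in wildtype libraries, which overlap. Fibroblasts had 4 and 3 UMIs in knockout libraries and 2 and 6 UMIs in wildtype libraries. Over the summed non-neuronal classes Casp8 had 46 and 53 UMIs in knockout libraries and 61 and 59 UMIs in wildtype libraries (log2 fold change 0.06 ± 0.21 SE, edgeR adjusted p = 0.936). Microglia were a larger share of the summed nuclei in knockout, so this value compares unlike mixtures of classes. Its neighbour Cflar, which encodes the caspase-8 regulator c-FLIP and starts 83.9 kb before it, rose in excitatory neurons (log2 fold change 0.76 ± 0.17 SE, edgeR adjusted p = 0.0376). Cflar had 426 and 585 UMIs in knockout libraries and 322 and 354 UMIs in wildtype libraries.

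Class means of Casp9 ran from 5.43 CPM in oligodendrocyte precursors to 12.4 CPM in microglia over the 8 classes with at least 10 UMIs, and no class stood clear of the next in that order. In excitatory neurons it had 199 and 190 UMIs in knockout libraries and 184 and 172 UMIs in wildtype libraries, a level of 7.86 and 7.52 CPM in knockout against 6.15 and 6.01 CPM in wildtype. Neither knockout value reached down to a wildtype value, with a log2 fold change of 0.31 ± 0.14 (SE). The same order appeared in 2 of 12 excitatory subclasses, L4/5 IT and excitatory cluster 4, which stood at 7.43 and 10.5 CPM in knockout and 4.71 and 5.17 CPM in wildtype.

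Among the 8 classes, both knockout libraries were above both wildtype libraries for Casp9 in 3, the excitatory neurons, astrocytes and fibroblasts, and below in 0. Nothing is read from this count or from that of the subclasses, as the share of all genes in either order is not given. Inhibitory neurons had 32 and 24 Casp9 UMIs in knockout libraries and 32 and 32 UMIs in wildtype libraries (log2 fold change -0.05 ± 0.28 SE, edgeR adjusted p = 0.958). Astrocytes had 13 and 16 UMIs in knockout libraries and 20 and 17 UMIs in wildtype libraries, at 12.3 and 12.8 CPM in knockout and 11.6 and 10.9 CPM in wildtype (log2 fold change 0.15 ± 0.35 SE, edgeR adjusted p = 0.950). Oligodendrocytes had 19 and 11 UMIs in knockout libraries and 19 and 21 UMIs in wildtype libraries (log2 fold change 0.14 ± 0.36 SE, edgeR adjusted p = 0.922). Near Casp9, Dnajc16, a gene for a DNAJ co-chaperone family member whose start is 2.7 kb away, had a log2 fold change of -0.08 ± 0.12 (SE), while the noncoding gene Fhad1os2, 92.0 kb away, rose (1.23 ± 0.18, edgeR adjusted p = 0.00708).

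Casp6, the executioner, had no class mean above 5.00 CPM. In excitatory neurons it had 41 and 55 UMIs in knockout libraries and 67 and 56 UMIs in wildtype libraries, at 1.62 and 2.18 CPM in knockout and 2.24 and 1.96 CPM in wildtype, which overlap (log2 fold change -0.17 ± 0.24 SE). Of the 7 excitatory subclasses with at least 10 Casp6 UMIs, both knockout libraries lay below both wildtype libraries in 3 and above them in 2. These counts too lack the share of all genes, and nothing is read from them. Inhibitory cluster 15 had 16 and 1 UMIs in knockout libraries and 6 and 2 UMIs in wildtype libraries. Oligodendrocytes, at 2 and 2 UMIs in knockout and 7 and 5 UMIs in wildtype, and astrocytes, at 1 and 1 UMIs in knockout and 7 and 3 UMIs in wildtype, had both knockout libraries below both wildtype libraries. Over the summed non-neuronal classes Casp6 had 10 and 7 UMIs in knockout libraries and 18 and 16 UMIs in wildtype libraries (log2 fold change -0.66 ± 0.42 SE, edgeR adjusted p = 0.516).

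**Figure D4:**
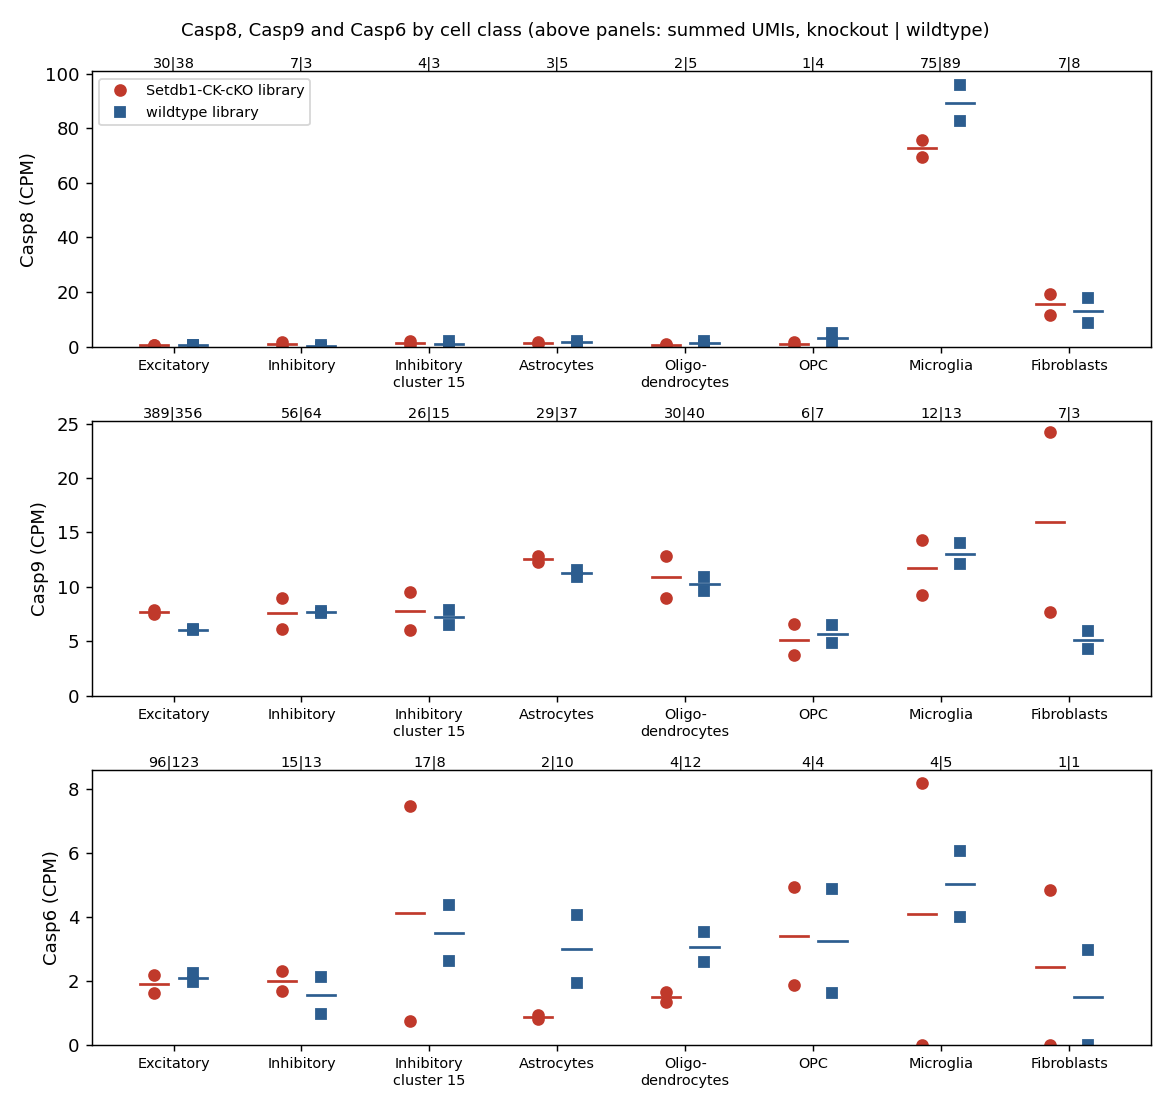
Levels of Casp8, Casp9 and Casp6 (CPM, vertical axes, 1 panel per gene) in 8 cell classes, with knockout libraries as red circles and wildtype libraries as blue squares, bars at the means and summed UMIs above each panel. Casp8 stands at 69.6 to 95.9 CPM in microglia, Casp9 is spread over all classes, and Casp6 stays below 8.2 CPM in each library.

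Among the inflammatory members, Casp1 is described first in neurons and then in microglia. Excitatory neurons had 9 and 10 UMIs in knockout libraries and 49 and 42 UMIs in wildtype libraries, at 0.355 and 0.396 CPM in knockout against 1.64 and 1.47 CPM in wildtype. The groups did not overlap, and the log2 fold change was -2.06 ± 0.32 (SE, n = 2 each). The 110 UMIs came from 108 of 27123 nuclei, so no few nuclei carried them. In the 6 subclasses with at least 10 Casp1 UMIs, both knockout libraries lay below both wildtype libraries in 6 of 6. That cut sums both genotypes, and wildtype libraries gave most of the UMIs in each of these subclasses. The count is therefore tied to the cut, and nothing is read from it. L2/3 IT neurons had 0 and 1 UMIs in knockout libraries and 8 and 10 UMIs in wildtype libraries.

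Marker sums of other cell types also differed between genotypes in excitatory neurons. The 10 microglial marker genes summed to 162 and 184 CPM in knockout excitatory neurons and 129 and 146 CPM in wildtype excitatory neurons. The 9 endothelial markers summed to 46.0 and 51.0 CPM in knockout and 13.4 and 15.2 CPM in wildtype, and the 9 astrocyte markers to 535 and 487 CPM in knockout and 620 and 645 CPM in wildtype. Their part in the Casp1 and Casp2 values was not tested. Inhibitory neurons, with 2 and 3 Casp1 UMIs in knockout libraries and 7 and 5 UMIs in wildtype libraries, had the same order. In the summed CPM of inhibitory neurons the knockout mean was 0.461 times the wildtype mean, on counts too low for a test.

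In microglia the order was the reverse, with 15 and 12 Casp1 UMIs in knockout libraries and 7 and 6 UMIs in wildtype libraries. The level was 30.7 and 22.1 CPM in knockout against 14.0 and 12.1 CPM in wildtype, without overlap, and the difference missed the threshold (log2 fold change 1.0 ± 0.47 SE, edgeR adjusted p = 0.419). The microglial marker sum was 5491 and 4758 CPM in knockout microglia and 5139 and 5016 CPM in wildtype microglia, which overlap. Over the summed non-neuronal classes Casp1 had 19 and 15 UMIs in knockout libraries and 11 and 8 UMIs in wildtype libraries (log2 fold change 1.17 ± 0.41 SE, edgeR adjusted p = 0.237). This sum too holds a larger share of microglia in knockout. Border macrophages, the macrophages of the brain's surfaces, held 1 and 1 UMIs in knockout libraries and 2 and 1 UMIs in wildtype libraries.

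Casp4 gave 63 UMIs in named classes, of which microglia held 52.4%. Microglia had 8 and 9 UMIs in knockout libraries and 7 and 9 UMIs in wildtype libraries, at 16.4 and 16.6 CPM in knockout and 14.0 and 18.1 CPM in wildtype, which overlap. Excitatory neurons had 4 and 4 UMIs in knockout libraries and 4 and 3 UMIs in wildtype libraries, at 0.158 and 0.158 CPM in knockout and 0.134 and 0.105 CPM in wildtype, which is 15 UMIs in all and below the filter for a fold change. In oligodendrocytes 0 UMIs were counted, which allows a level of up to 0.454 CPM over the 4 libraries (3 counts, counting error only). Over the summed non-neuronal classes Casp4 had 11 UMIs in each library (log2 fold change 0.33 ± 0.42 SE, edgeR adjusted p = 0.771).

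Casp12 was found mainly in fibroblasts and in the excitatory cells of the claustrum or L6 Car3 group. Fibroblasts had 6 and 1 UMIs in knockout libraries and 6 and 3 UMIs in wildtype libraries, and every library stood above all libraries of the next class, microglia, which reached 2.01 CPM. The claustrum or L6 Car3 neurons had 5 and 1 UMIs in knockout libraries and 10 and 4 UMIs in wildtype libraries, which overlap and make up 20 of the 33 excitatory UMIs. All excitatory neurons together had 5 and 2 UMIs in knockout libraries and 20 and 6 UMIs in wildtype libraries, without overlap and below the filter for a fold change. Outside chromosome 9's caspase block, the nearest tested genes Gria4, an AMPA receptor subunit gene, and Pdgfd, a growth factor gene, lay at -0.08 ± 0.06 and 0.23 ± 0.40 in excitatory neurons (log2 fold change ± SE).

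**Figure D5:**
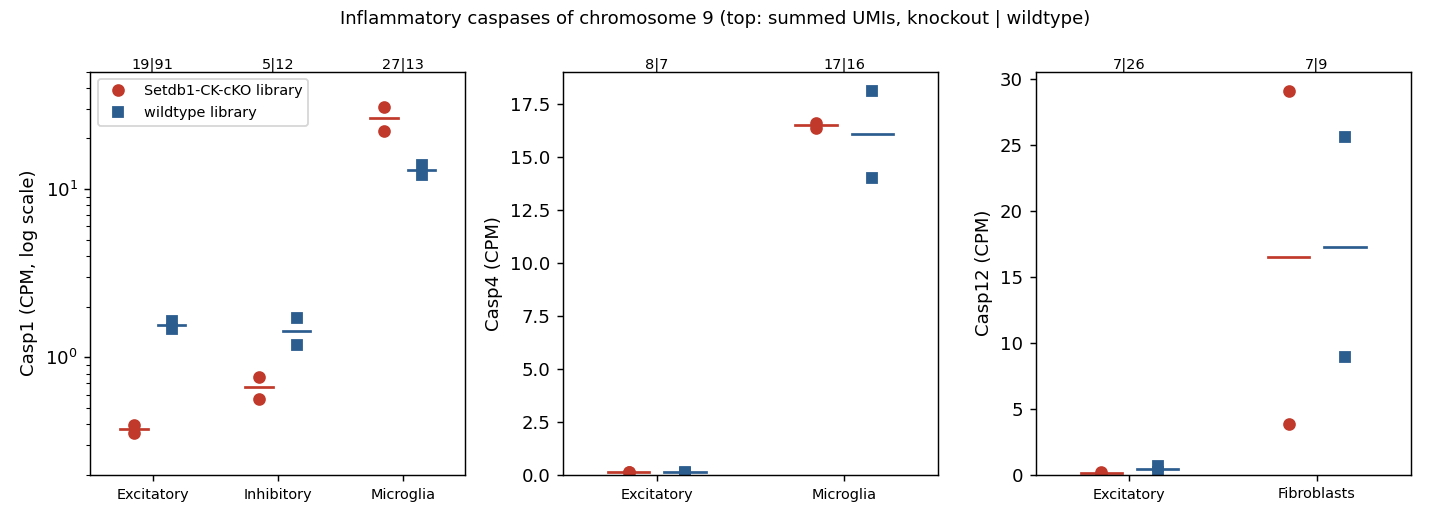
Levels of Casp1 (log axis), Casp4 and Casp12 (CPM) in the classes that hold most of their UMIs, with knockout libraries as red circles and wildtype libraries as blue squares, bars at the means and summed UMIs on top. Both knockout libraries lie lower for Casp1 in both neuron classes and higher in microglia, where the test missed the threshold, while the groups overlap for Casp4 in microglia and for Casp12 in fibroblasts.

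Counted over the members, 5 of 7 had enough UMIs to be tested in excitatory neurons and 2 of these, Casp1 and Casp2, passed an adjusted p of 0.05, where 4.57% of all 19137 genes tested passed. The choice of members rests on that contrast, so nothing is read from this count. In inhibitory neurons 0 of 2 members tested passed, against 1.12% of all genes, and in inhibitory cluster 15 0 of 2 passed, against 0% of all genes (edgeR; 510 genes had an unadjusted p under 0.05, and DESeq2 called 9). Astrocytes had 0 of 1 past the threshold, against 0.304% of all genes, oligodendrocytes 0 of 2, against 1.02%, and microglia 0 of 2, against 0.133%. The summed non-neuronal classes had 0 of 6, against 0.612%.

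The proteins that activate, restrain or follow the caspases were taken from 8 lists of 85 genes, of which 63 were tested in excitatory neurons. Of these 2 rose and 0 fell, which is not above the 4.57% of all 19137 genes tested that passed there in either direction. Cflar, given above, was the one of 6 tested genes for death receptors and necroptosis to pass, and Ddit3, the stress transcription factor CHOP, was the one of 10 for endoplasmic reticulum stress. Ddit3 had 261 and 326 UMIs in knockout libraries and 201 and 204 UMIs in wildtype libraries (log2 fold change 0.72 ± 0.15 SE, edgeR adjusted p = 0.0345), and its symbol is shared with a second gene ID that had 0 UMIs there. Next in these lists were Traf2, an adaptor of tumour necrosis factor receptors, at 0.18 ± 0.20, and Capn1, a calpain protease gene, at -0.25 ± 0.15 (log2 fold change ± SE).

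Both partners of caspase-2 in the PIDDosome missed the threshold. Cradd had 609 and 693 UMIs in knockout libraries and 634 and 699 UMIs in wildtype libraries (log2 fold change 0.15 ± 0.12 SE), and Pidd1 had 21 and 25 UMIs in knockout libraries and 25 and 32 UMIs in wildtype libraries (-0.13 ± 0.31). Casp14, a caspase of the epidermis, had 0 UMIs in every library.

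Among the BCL2 family, which sets the release of cytochrome c, 0 of 12 tested genes passed, against a median log2 fold change of -0.025 for the list and 0.005 for all genes. The closest were the proapoptotic Bcl2l11, with 100 and 104 UMIs in knockout libraries and 71 and 66 UMIs in wildtype libraries (edgeR adjusted p = 0.0542), and the antiapoptotic Bcl2, with 1273 and 980 UMIs in knockout libraries and 1913 and 1654 UMIs in wildtype libraries (edgeR adjusted p = 0.0714). Of the apoptosome and its inhibitors 0 of 11 passed, with Birc5, the inhibitor survivin, at 0.89 ± 0.28 and Cycs, cytochrome c, at 0.33 ± 0.14 (log2 fold change ± SE; edgeR adjusted p = 0.115 and 0.224). Of 10 caspase substrates and nucleases 0 passed, with the DNA repair enzyme gene Parp1 at 0.27 ± 0.10 and the spectrin gene Sptan1 at -0.16 ± 0.09.

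The inflammasome and pyroptosis list had 0 of 10 past the threshold in excitatory neurons. Aim2, a sensor of cytosolic DNA, stood at 0.33 ± 0.11 and Gsdmd, the pore protein that caspase-1 cuts, at 1.11 ± 0.46 (log2 fold change ± SE; edgeR adjusted p = 0.126 and 0.214). In inhibitory neurons Nek7, a kinase that activates NLRP3, fell, with 293 and 330 UMIs in knockout libraries and 484 and 452 UMIs in wildtype libraries (log2 fold change -0.45 ± 0.10 SE, edgeR adjusted p = 0.0448). No other of the 52 tested list genes passed there, where 1.12% of all genes passed. In the summed non-neuronal classes the inflammasome sensor gene Nlrp1b, whose reads may be shared with its paralog Nlrp1a, rose, with 87 and 98 UMIs in knockout libraries and 55 and 62 UMIs in wildtype libraries (log2 fold change 0.99 ± 0.19 SE, edgeR adjusted p = 0.0442). It was the only one of 65 tested list genes to pass there, where 0.612% of all genes passed. In astrocytes (43 tested), oligodendrocytes (48), microglia (48) and inhibitory cluster 15 (39) no list gene passed by edgeR.

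The pattern of each member over 44 values, 4 libraries in 11 classes, was set beside that of 17089 other genes as a description, since the values share libraries and depth and many are 0. Nearest to Casp8 by Pearson's r of log2(CPM + 1) were Lgals9 (0.83), Arap3 (0.82) and Ifngr1 (0.82). Casp4 was nearest to Sp110 (0.86), Parvg (0.85) and Batf (0.84), and Casp1 to Ppcdc (0.79), Tmem71 (0.78) and Olfr56 (0.77). Casp12 came nearest to Gm15883 (0.91), Ccn5 (0.90) and Fbxw18 (0.90). For Casp2 the nearest were Glra4 (0.80), Rpp25l (0.73) and Slc2a6 (0.72), for Casp9 AC154200.1 (0.88), Ampd2 (0.80) and Gm42726 (0.78), and for Casp6 Naglu (0.75), Gm2694 (0.65) and Gm11739 (0.63).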

How the data were processed

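Per the labels' protocols, cortical nuclei were purified on sucrose and made into 10x Genomics 3′ libraries. The authors deposited raw UMI counts per gene and nucleus; Cell Ranger 7.1.0 and mm10 are named in the submitters' processing notes, and strand handling is not given in the sources used here. Kept nuclei had 500 or more UMIs, 300 or more genes and no more than 5% of UMIs from mitochondria, and Scrublet, at an expected rate of 10%, marked 4.14 to 5.11% of nuclei per library as doublets, which were removed. Scanpy 1.11.5 clustered 52038 nuclei (2000 variable genes, 30 principal components, 15 neighbours, Leiden resolution 1.0) into 33 clusters, of which 27 were named from marker lists. A difference from the study's own cell types may come from these rebuilt names.

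Counts were summed per library and class and tested with edgeR 4.0.16 (TMM, filterByExpr, quasi-likelihood, genotype only, 2 animals per group), with Benjamini-Hochberg adjustment over all genes of the class at 0.05. Classes with under 30 nuclei in a library, the border macrophages, were not tested. DESeq2 1.42.0, RLE size factors, no filter, at least 1000 UMIs, a replicate block and leaving out each library were alternatives. CPM are UMIs scaled to all UMIs of the library or class, without TMM, and log2 fold changes come from the edgeR fit. All members are reported. Named beside them are the list genes past the threshold or with the 2 smallest p per list, and the 3 most alike patterns. The 3 tested genes on each side are all named for Casp2 alone. For Casp1, Casp4, Casp8, Casp9 and Casp12 those past the threshold and some others are named. For Casp6 no such neighbour passed and none is named. Members and lists were chosen with earlier results of these data known. Promoters and their coordinates are from RefSeq (GRCm38.p6), and gene positions from GENCODE vM21. Replicates are separate animals, per the series' design text. Some genes of the lists are not reported here.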

Additional observations from a re-analysis of the deposited data

Results flagged for a closer look

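Casp1 values stood in opposite order between genotypes in neurons and microglia. On the log2 CPM scale, knockout minus wildtype was -2.06 in excitatory neurons, -1.12 in inhibitory neurons and 1.0 in microglia, from the edgeR fit in excitatory neurons and microglia and from the ratio of mean CPM in inhibitory neurons, where Casp1 was too low to be fitted. Every knockout library lay below every wildtype library in both neuron classes and above every wildtype library in microglia. In microglia the difference missed the threshold (edgeR adjusted p = 0.419), and in inhibitory neurons the counts fell under the filter. It missed the threshold in microglia with RLE size factors, no filter and the replicate block too (edgeR adjusted p = 0.421, 0.801 and 0.346). DESeq2 and the limit of at least 1000 UMIs gave no adjusted p for Casp1 there. The difference between the classes itself was not tested, and the inhibitory and microglial values rest on 17 and 40 UMIs.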

How the results depend on the processing

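In excitatory neurons, the contrast known when the members were chosen, the log2 fold change ran from -1.29 to -1.20 for Casp2 and from -2.16 to -1.98 for Casp1 over 9 alternatives, given as a description. Counts of genes called moved. With no filter on low counts they were 288 in excitatory neurons, 105 in inhibitory cluster 15, 187 in astrocytes, 32 in oligodendrocytes, 0 in microglia and 20 in the summed non-neuronal classes. DESeq2 called 83 in inhibitory neurons, 9 in inhibitory cluster 15, 47 in oligodendrocytes, 0 in microglia and 65 in non-neuronal classes. With at least 1000 UMIs per nucleus there were 22 in astrocytes, 18 in oligodendrocytes, 0 in microglia and 44 in non-neuronal classes. For microglia, an unadjusted p under 0.05 was reached by 1224 genes with no filter, 258 by DESeq2 and 281 at 1000 UMIs.

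Replicate numbers are not said to pair animals, and only 2 pairs exist; deviations of same-numbered libraries correlated at 0.365 in excitatory neurons over 19137 genes and 0.282 in non-neuronal classes, and the numbers also split the libraries by sex-linked RNA. The replicate block gave 3417 called genes in excitatory neurons, 1096 in inhibitory neurons, 41 in inhibitory cluster 15, 421 in astrocytes, 565 in oligodendrocytes, 295 in microglia and 1047 in non-neuronal classes. With it Casp2 passed in inhibitory neurons (-1.06, edgeR adjusted p = 0.0206) and in non-neuronal classes (-1.22). In inhibitory neurons Casp2 missed the threshold with RLE size factors, no filter, at least 1000 UMIs and DESeq2.

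Leaving out 1 library gave 733 to 2571 called genes in excitatory neurons, 142 to 770 in inhibitory neurons, 0 to 728 in inhibitory cluster 15, 50 to 321 in astrocytes, 68 to 382 in oligodendrocytes, 0 to 49 in microglia and 156 to 936 in non-neuronal classes; the highest count came without knockout replicate 1, except in microglia, where it came without wildtype replicate 2. Casp2 then ranged from -1.50 to -0.97 in non-neuronal classes, from -1.30 to -0.78 in inhibitory neurons and from -2.73 to -1.15 in inhibitory cluster 15. Values that never passed changed sign without 1 library. In excitatory neurons Casp6 ranged from -0.417 to 0.0314 (above 0 without knockout replicate 1) and Casp8 from -0.494 to 0.112 (without knockout replicate 1 or wildtype replicate 2). Casp9 ranged from -0.326 to 0.191 in inhibitory neurons and from -0.276 to 0.379 in inhibitory cluster 15. It ranged from -0.142 to 0.341 in oligodendrocytes and from -0.0891 to 0.256 in non-neuronal classes. Casp8 in non-neuronal classes ranged from -0.0248 to 0.133, and was -0.29 at 1000 UMIs. The cause was not tested. Doublets were removed before clustering, so keeping them was not run. Most classes hold under 50 UMIs of a member, which limits what they can show.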
